A study of Mus musculus with 6 samples.

Results

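The 5 dopamine receptor genes of the mouse, Drd1, Drd2, Drd3, Drd4 and Drd5, were examined in RNA-seq data from the lateral septum (LS) of mice fed olanzapine. Their rows were taken by gene symbol and make up 5 of the 35415 genes in the deposited tables, and 4 of them were among the 17255 genes with enough counts to be tested. Female wild-type C57BL/6 mice, obtained at about 8 weeks of age, received either a control chow (control group) or the same maintenance chow containing 50 mg/kg olanzapine (olanzapine group). Feeding lasted 12 weeks in both groups. The LS was micro-dissected, and the tissue of 3 mice was pooled for each library, so that each group had 3 pools (n = 3). A pool averages its mice, and variation among individual mice could not be measured. The labels name no other treatment or genetic change in either group.

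Dopamine receptors are G protein-coupled receptors of a D1 class (Drd1 and Drd5), which couple to Gs and Golf and raise cyclic AMP, and a D2 class (Drd2, Drd3 and Drd4), which couple to Gi and Go and lower it. Drd1 and Drd2 are the abundant receptors of the striatum, where they mark separate classes of projection neurons, and the LS receives dopamine fibres from the midbrain. Olanzapine is a second-generation antipsychotic that blocks dopamine receptors of both classes along with serotonin, histamine and muscarinic receptors. The comparison of the groups asked whether prolonged exposure to the drug was accompanied by a different mRNA level of the receptors that it binds.

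The receptor values rest on deep libraries that differed in their sums of tissue markers. Counts on genes summed to between 38208153 and 39868872 per pool. Normalized counts, given throughout, are counts scaled by TMM size factors to a common depth. The list of LS markers (10 genes, Gad1, Gad2, Slc32a1, Zic1 and others) summed to between 75745 and 115865 normalized counts. Gad1, Gad2 and Slc32a1 mark all GABAergic neurons, striatal ones included, and made up 70.8 to 73.0% of that sum, and the other 7 genes summed to between 21848 and 32374 in every pool. Markers of cortical glutamatergic neurons (8 genes, Slc17a7 and others) summed to 38623 in olanzapine pool 1 and to between 3081 and 5956 in the other 5 pools. Markers of the choroid plexus (8 genes, Ttr and others) differed 113-fold between the lowest pool (olanzapine 3) and the highest (control 3). Hepatocyte markers (8 genes, Alb and others) summed to between 415 and 724 in the control pools and to between 8653 and 10764 in the olanzapine pools. Because olanzapine pool 1 stood apart, the fold changes, levels and spread of the receptors are given below also without it, for levels and spread as a choice made after the data were seen.

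**Figure D1:**
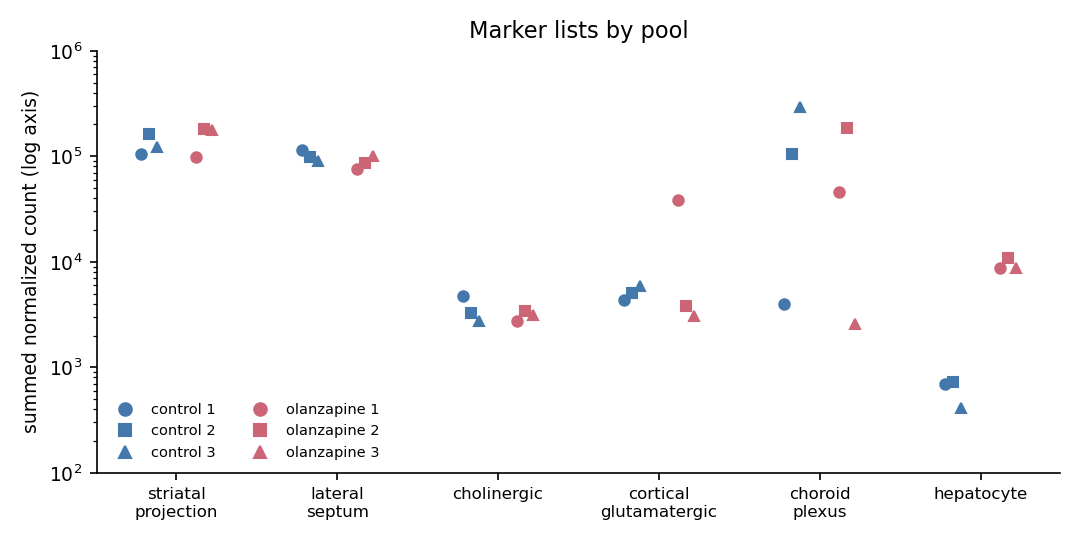
Summed normalized counts of 6 marker lists (log axis) in each pool, with control pools in blue, olanzapine pools in red and the symbol giving the pool number. The cortical sum of olanzapine pool 1 (38623) lies above the other 5 pools, the choroid plexus sum spreads 113-fold, and the hepatocyte sum is higher in all 3 olanzapine pools.

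Drd2 and Drd1 were the abundant receptors in these pools, Drd5 and Drd3 lay well below them in every pool, and Drd4 was close to absent. Levels of different genes were compared as FPKM, the authors' fragment counts corrected for transcript length and library depth. Over the 6 pools the mean was 31.6 ± 8.89 FPKM (SD) for Drd2, 18.8 ± 5.43 for Drd1, 1.39 ± 0.243 for Drd5, 1.00 ± 0.326 for Drd3 and 0.0143 ± 0.0175 for Drd4. Of all genes in the table, 94.5% had a lower mean FPKM than Drd2, 90.8% a lower one than Drd1, 66.2% than Drd5, 64.2% than Drd3 and 37.5% than Drd4. The mean of Drd2 was 1.68 times that of Drd1, and Drd2 was the higher one in 6 of 6 pools, although the ranges of the pools overlapped (Drd2 from 19.8, Drd1 up to 23.8). The step from Drd1 down to Drd5 was 13.5-fold, with no overlap between any of the pools. Drd5 and Drd3 could not be separated, since their ranges overlapped and Drd5 was higher in 5 of 6 pools. Drd4 lay below Drd3 in every pool. Without olanzapine pool 1 the order of the means was the same, and Drd2 (24.8 FPKM or more) no longer overlapped with Drd1 (at most 23.8). The same pools also held RNA of the 13 shared markers of striatal projection neurons described below. Their means over the 6 pools ran from 2.91 FPKM (Foxp1) to 268 FPKM (Ppp1r1b). The parts of septal and striatal cells in the receptor levels were not tested.

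**Figure D2:**
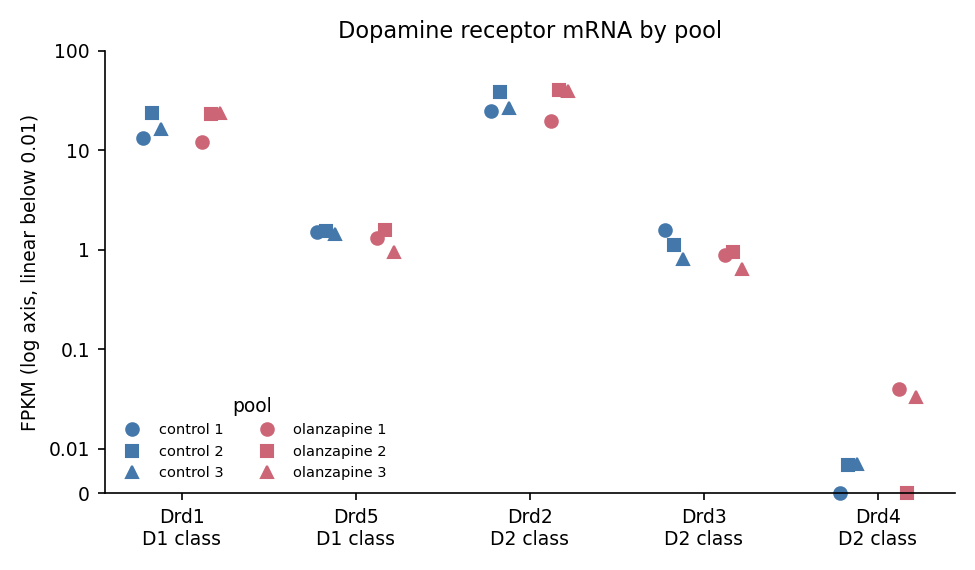
FPKM of each dopamine receptor gene in each pool (vertical axis logarithmic above 0.01 and linear below), grouped by receptor class, with control pools in blue, olanzapine pools in red and the symbol giving the pool number. Drd2 and Drd1 lie between 12.2 and 40.4 FPKM, Drd5 and Drd3 between 0.646 and 1.60, and Drd4 at or below 0.0399; the control and olanzapine points of every gene overlap.

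The order of the low receptors depended on the length assigned to Drd3. In the deposited FPKM, a count on Drd3 was worth 0.735 times a count on Drd1, whereas the merged exons of GENCODE M21 (1712 bases for Drd3, 3628 for Drd1) would make it worth 2.12 times as much. With normalized counts per kilobase of those merged exons, Drd3 lay between 71.6 and 179 and Drd5 between 35.1 and 58.3, so that Drd3 ranked above Drd5 without overlap. Drd2 remained first, Drd1 second and Drd4 last on that scale, and the mean of Drd1 was 6.47 times that of Drd3. Which transcript lengths entered the FPKM is not stated, and neither the rank of Drd3 against Drd5 nor the size of its step below Drd1 is therefore settled by these data.

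Drd1 encodes the main D1-class receptor of the forebrain and lies on chromosome 13 (GRCm38, chr13:54051183-54055705, minus strand). Its counts in the control pools, taken in order of pool number, were 1915, 3387 and 2301, and those under olanzapine were 1678, 3179 and 3288. Control pool 2 and olanzapine pools 2 and 3 were high, and control pools 1 and 3 and olanzapine pool 1 were low, so each group held high and low pools and the groups overlapped. Normalized counts averaged 2513 ± 743 (SD, n = 3) for control and 2725 ± 866 (SD, n = 3) for olanzapine. The edgeR fit gave a log2 fold change of 0.12 (SE 0.27, 95% interval -0.51 to 0.74), and its quasi-likelihood test gave a Benjamini-Hochberg adjusted p of 0.865. On the linear scale the interval runs from 0.702-fold to 1.67-fold. Without olanzapine pool 1 the log2 fold change was 0.36 (adjusted p = 0.368 by the same edgeR test). It turned negative without control pool 1 (-0.047) or olanzapine pool 3 (-0.046).

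Drd5, the other D1-class receptor, has a higher affinity for dopamine than Drd1. It is a gene of 1 exon on chromosome 5 (chr5:38319367-38322518, plus strand). Its counts in the control pools, taken in order of pool number, were 183, 186 and 170, and those under olanzapine were 152, 184 and 110. The control pools were close together, olanzapine pool 2 lay within their range, and olanzapine pool 3 was the lowest of the 6. Normalized counts averaged 178 ± 8.50 (SD, n = 3) for control and 150 ± 36.1 (SD, n = 3) for olanzapine, and edgeR gave a log2 fold change of -0.25 (SE 0.21, 95% interval -0.74 to 0.24), with a Benjamini-Hochberg adjusted p of 0.586. Without olanzapine pool 3 it was -0.077, and without olanzapine pool 1 it was -0.29. An antisense gene, Gm26560, overlaps the exon of Drd5 and the strand setting of the counting is not stated. Gm26560 itself had 5 counts in olanzapine pool 1 and at most 1 in each other pool.

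Drd2 encodes the main D2-class receptor, the target shared by antipsychotic drugs, and lies on chromosome 9 (chr9:49340627-49408177, plus strand). Its counts in the control pools, taken in order of pool number, were 2810, 4308 and 2981, and those under olanzapine were 2164, 4386 and 4374. The same 3 pools were high as for Drd1, and olanzapine pool 1 was again the lowest. Normalized counts averaged 3339 ± 795 (SD, n = 3) for control and 3653 ± 1233 (SD, n = 3) for olanzapine. The edgeR fit gave a log2 fold change of 0.13 (SE 0.26, 95% interval -0.48 to 0.74, or 0.718-fold to 1.67-fold), and its quasi-likelihood test gave a Benjamini-Hochberg adjusted p of 0.844. Without olanzapine pool 1 the log2 fold change was 0.39, with an unadjusted p of 0.0398 and an adjusted p of 0.237 by the same edgeR test. It turned negative without olanzapine pool 2 (-0.012) or olanzapine pool 3 (-0.026).

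Drd3, a D2-class receptor known from the ventral striatum and the islands of Calleja, lies on chromosome 16 (chr16:43754026-43822932, plus strand). Its counts in the control pools, taken in order of pool number, were 307, 219 and 155, and those under olanzapine were 166, 177 and 122. Control pool 1 was the highest and olanzapine pool 3 the lowest, and control pool 3 lay below olanzapine pools 1 and 2. Normalized counts averaged 226 ± 77.0 (SD, n = 3) for control and 156 ± 29.1 (SD, n = 3) for olanzapine. The edgeR fit gave a log2 fold change of -0.53 (SE 0.27, 95% interval -1.16 to 0.10), and its quasi-likelihood test gave an unadjusted p of 0.0900 and a Benjamini-Hochberg adjusted p of 0.364. Of the 4 tested receptors, this was the one with the estimate farthest from 0, and it did not pass the test. The log2 fold change was -0.25 without control pool 1 and -0.60 without olanzapine pool 1. Without control pool 3 it was -0.73, with an unadjusted p of 0.0231 and an adjusted p of 0.243 by the same edgeR test. Control pool 1 was also the highest in markers of cholinergic neurons (6 genes, Chat and others, 4701 against 2715 to 3451 in the other pools) and in the list of septal markers (115865), but the second highest septal sum (99903) was that of olanzapine pool 3, the lowest in Drd3. The part of these cells in the Drd3 value was not tested.

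Drd4, a D2-class receptor known from the retina and the prefrontal cortex, lies on chromosome 7 (chr7:141292006-141296464, plus strand). Its counts in the control pools, taken in order of pool number, were 0, 1 and 1, and those under olanzapine were 6, 0 and 5. A count of 0 allows up to 3 counts, and only olanzapine pools 1 and 3 exceeded that floor. The olanzapine pools together held 11 counts and the control pools 2, a depth-corrected ratio of 5.58 with a 95% interval of 1.22 to 51.8 that covers counting error only and compares the reads of these pools, not the conditions. The log2 of this ratio was 2.48 with all pools and 1.91 without olanzapine pool 1. Olanzapine pool 2, at 0, lay at or below all control pools, so the groups overlapped. Drd4 did not pass the count filter. Tested by edgeR without that filter, it had a Benjamini-Hochberg adjusted p of 0.552, and a difference beyond the spread between pools was not detectable at this depth.

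None of the 4 tested receptors was called by edgeR's quasi-likelihood test at a Benjamini-Hochberg adjusted p under 0.05, in a comparison where 2.32% of the tested genes were called (1.83% higher and 0.493% lower in the olanzapine group). With the added condition of a fold change beyond 2, 1.01% of genes were called and again 0 receptors. At an unadjusted p under 0.05, 17.6% of genes passed and 0 of the 4 receptors. The pools of both groups overlapped for all 5 receptors, whereas they were fully apart for 24.3% of tested genes. With 4 genes, counts of 0 lie near these background shares and say nothing particular about receptors. DESeq2 and limma on log2 FPKM also called 0 receptors, but DESeq2 gave Drd4 no adjusted p, so it could not be called there. The estimates were 0.12 and 0.13 on the log2 scale for Drd1 and Drd2, and -0.53 and -0.25 for Drd3 and Drd5, beside a median of 0.0039 over all tested genes. Changes beyond 2-fold lay outside the intervals of Drd1, Drd2 and Drd5, while for Drd3 a fall to 0.446-fold remained within it.

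**Figure D3:**
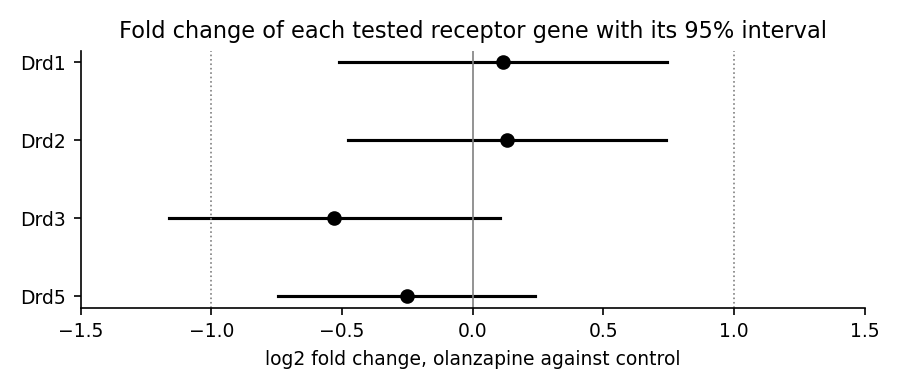
Log2 fold change (horizontal axis) of the olanzapine group against the control group for the 4 tested receptor genes, with points for the estimate and bars for the 95% interval from the edgeR fit. All 4 intervals include 0 (solid line), and only that of Drd3, from -1.16 to 0.10, reaches beyond a 2-fold change (dotted lines).

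The difference between pools of 1 group exceeded the difference between groups for the abundant receptors. Drd1 varied 1.93-fold and Drd2 1.97-fold between the lowest and the highest pool. Their SD within groups, 0.47 and 0.46 on the log2 scale, was larger than that of 83.1% and 82.6% of the tested genes. In olanzapine pool 1, Drd1 was at 52.3% and Drd2 at 50.7% of the normalized count in olanzapine pool 3. Over the 5 pools other than olanzapine pool 1, Drd1 varied 1.75-fold and Drd2 1.57-fold. The part of the cortical tissue marked in olanzapine pool 1 in these values was not tested.

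Drd1 and Drd2 moved together from pool to pool. The ratio of Drd2 to Drd1 FPKM stayed between 1.60 and 1.85, with a mean of 1.70 ± 0.134 (SD, n = 3) for control and 1.68 ± 0.0568 (SD, n = 3) for olanzapine. The ratio of Drd1 to Drd3 FPKM, by comparison, ran from 8.49 in control pool 1 to 36.7 in olanzapine pool 3. Likeness was measured as the root mean square difference between 2 log2 CPM profiles over the 6 pools, each centred on its mean. Drd1 and Drd2 differed by 0.0707 on this measure (0.0731 without olanzapine pool 1), and each was the third nearest to the other of 14278 genes with a mean of at least 50 counts. The median gene lay at 0.418 from Drd1 and 0.409 from Drd2.

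The promoter windows of Drd1 and Drd2 are shown as a description of their sequence. They were taken from RefSeq (GRCm38.p6), from 250 bases before to 50 bases after an annotated start, 5′ to 3′. Capitals mark each GC box, a match to GGGCGG on either strand, where a match to the reverse strand reads CCGCCC. The Drd1 window is chr13:54055609-54055908 (minus strand), the more upstream of 2 RefSeq windows of the gene, and the Drd2 window is chr9:49340153-49340452 (plus strand), which lies wholly upstream of the GENCODE M21 start of the gene.
Drd1: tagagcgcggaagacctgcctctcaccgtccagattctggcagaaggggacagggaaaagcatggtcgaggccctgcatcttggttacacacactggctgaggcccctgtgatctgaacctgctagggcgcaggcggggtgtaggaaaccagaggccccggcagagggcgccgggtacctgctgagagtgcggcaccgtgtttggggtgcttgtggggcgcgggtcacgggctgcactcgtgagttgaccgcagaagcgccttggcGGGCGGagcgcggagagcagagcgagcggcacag
Drd2: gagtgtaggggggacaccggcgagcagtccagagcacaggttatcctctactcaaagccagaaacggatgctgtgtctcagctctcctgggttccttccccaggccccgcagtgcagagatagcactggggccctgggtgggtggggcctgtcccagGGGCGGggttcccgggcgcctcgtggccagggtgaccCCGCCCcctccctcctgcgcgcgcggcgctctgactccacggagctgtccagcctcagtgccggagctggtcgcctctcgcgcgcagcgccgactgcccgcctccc
The Drd1 window held 1 GC box and a GC content of 65.7%, and the Drd2 window held 2 and 70.3%, beside a median GC content of 52.7% over all windows. A GC box was present in 35.7% of the 32851 RefSeq windows of the same length. The windows of Drd5 and Drd4 held 2 and 3 GC boxes (2 of the latter share a base), and that of Drd3 held 0. Neither TATAAA, present in 13.6% of all windows, nor TGACG, present in 20.8%, occurred on either strand in the windows of the 5 receptors. These matches describe the letters of the windows only.

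The genes whose profile was nearest to Drd1 were Gng7 (0.0660 on the same measure), Pde10a (0.0691), Drd2, Gpr52 (0.0773) and Rem2 (0.0914). Those nearest to Drd2 were Gpr52 (0.0400), Gng7 (0.0566), Drd1, Lrrc10b (0.0900) and Rasd2 (0.0902). Gng7 encodes a G protein gamma subunit and Pde10a a phosphodiesterase of striatal projection neurons, and Gpr52 is an orphan receptor found there. Gng7, Pde10a, Lrrc10b and Rasd2 also belong to the striatal list described next, and Gpr52 to the markers of its Drd2 class. Gng7 had 14569, 22622 and 16349 normalized counts in the 3 control pools, against 12899, 23704 and 22710 in the 3 olanzapine pools, high in the same 3 pools as both receptors. Drd3 and Drd5 were far from Drd1, at 0.658 and 0.509. The nearest genes to Drd5 were Gm10353 (0.0374), Itga3, A930033H14Rik, Gpr21 and F930015N05Rik (0.0876), all lowest in olanzapine pool 3. For Drd3 the nearest were Gm33250 (0.163), Trim34a, Ddi2, Slc19a3 and Gm13830 (0.178), and even the nearest of these lay farther away than the 5 nearest of each other receptor.

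**Figure D4:**
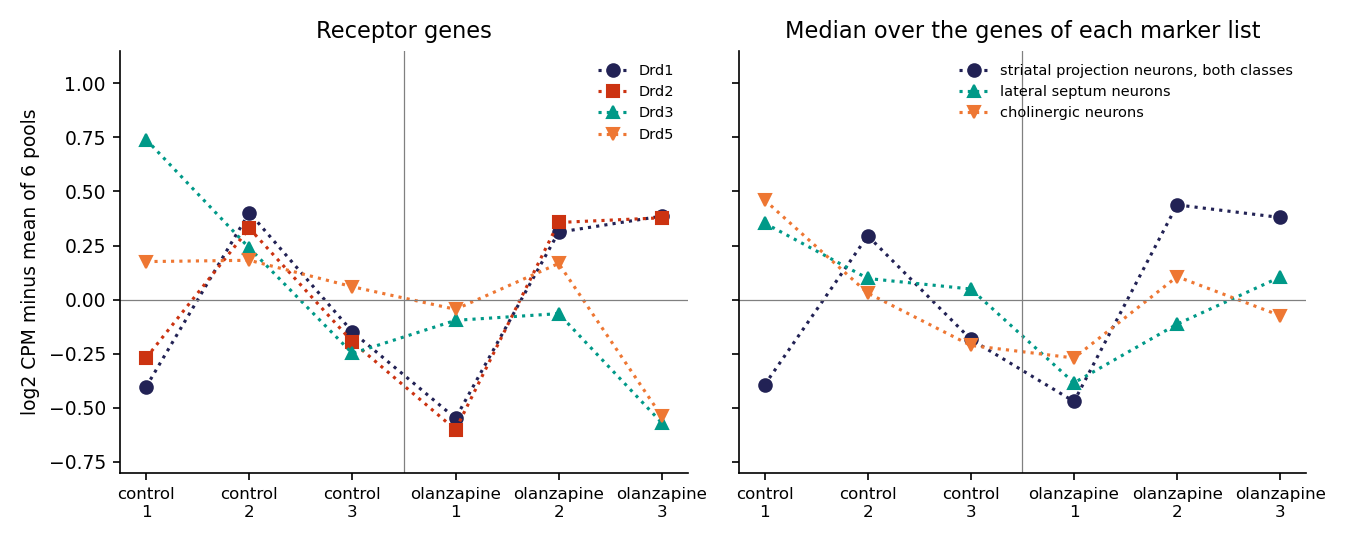
Log2 CPM of 4 receptor genes relative to their mean over the 6 pools (left) and the median of the same quantity over the genes of 3 marker lists (right), with control pools left and olanzapine pools right of the vertical line; dotted lines link values of 1 gene or list and imply no order of pools. Drd1 and Drd2 share their high pools (control 2, olanzapine 2 and 3) with the striatal list, whereas Drd3 is highest in control pool 1.

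The summed markers shared by both classes of striatal projection neurons were high in the same pools as Drd1 and Drd2. This list of 13 genes (Ppp1r1b, Adcy5, Gng7, Pde1b and others) had a summed normalized count of 104498, 162539 and 121348 in the control pools, and of 98189, 180828 and 176480 in the olanzapine pools. The highest sum was 1.84 times the lowest. All 13 genes were higher in each of the same 3 pools than in any of the other 3. Of the 7 markers of the Drd1 class only 2 followed this pattern, and Chrm4, Isl1, Ebf1, Eya1 and Sfxn1 did not. Of the 6 markers of the Drd2 class 4 followed it, and Sp9 and Oprd1 did not. The tally was made after the values were seen. Drd1 amounted to 1.83, 2.06 and 1.88% of that sum in the control pools and to 1.76, 1.74 and 1.87% in the olanzapine pools. Drd2 amounted to 2.69, 2.62 and 2.44% in the control pools and to 2.27, 2.40 and 2.49% in the olanzapine pools. On this scale, chosen after the values were seen, the spread of each receptor over the pools shrank to 1.18-fold. The shares ran from 1.74 to 2.06% for Drd1 and from 2.40 to 2.69% for Drd2 without olanzapine pool 1.

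The shares of the groups overlapped for both receptors. The share of Drd1 was 1.92 ± 0.119% (SD, n = 3) for control and 1.79 ± 0.0728% (SD, n = 3) for olanzapine. The share of Drd2 was 2.58 ± 0.130% (SD, n = 3) and 2.39 ± 0.111% (SD, n = 3). A two-sided exact permutation test gave p = 0.2 for each (adjusted p = 0.2 over both), but 3 against 3 pools allow no p under 0.1, so this test could not have passed 0.05. In bulk tissue, fewer cells of a type and less RNA per cell cannot be told apart, so a pool with less Drd1 and Drd2 may hold fewer receptor-bearing cells or less receptor mRNA in each. The part that the amount of striatal projection neurons had in the receptor values was not tested.

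**Figure D5:**
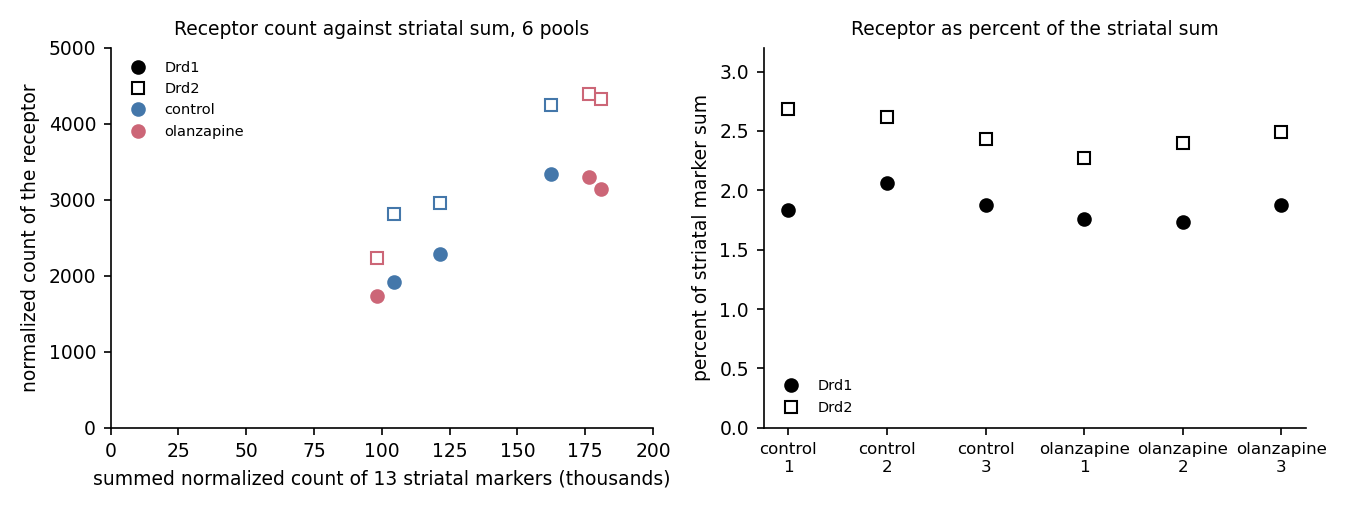
Normalized counts of Drd1 (filled circles) and Drd2 (open squares) against the summed normalized count of 13 striatal markers (left, control pools blue and olanzapine pools red), and each receptor as a percent of that sum by pool (right). The 3 pools with the higher striatal sums also have the higher receptor counts, and the percents stay between 1.74 and 2.06 for Drd1 and between 2.27 and 2.69 for Drd2.

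None of the 13 shared striatal markers was called, 11 had a positive log2 fold change (8747 of all 17255 tested genes), and their median was 0.26, beside 0.0039 over all genes. With 2.32% of all tested genes called, counts of 0 on lists of this size say nothing particular about them. Of 7 markers of the Drd1 class of striatal neurons, 0 were called and the median was -0.045. Among them Tac1, which encodes substance P, had a log2 fold change of 0.34 and Pdyn, which encodes dynorphin, one of -0.045. The 7 values, 2 positive and 5 negative, ran from -0.62 (Ebf1, named after its values were seen) to 0.46 (Chrm4). By edgeR's quasi-likelihood test the unadjusted p was 0.0371 for Ebf1 and 0.00704 for Chrm4, and the adjusted p 0.246 and 0.120. Of 6 markers of the Drd2 class, 0 were called and the median was 0.29, with 0.30 for Penk (enkephalin) and 0.28 for Adora2a (an adenosine receptor). Sp9 was the only negative member of that class, at -0.29. The 10 LS markers also held 0 called genes, with a median of -0.32 and 8 of 10 negative. Of these, 7 were lowest in olanzapine pool 1, compared with 22.3% of all tested genes.

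The genes that make, store and clear dopamine held 0 called members among the 7 tested, with a median log2 fold change of -0.11. Th, the rate-limiting enzyme of dopamine synthesis, is known from dopamine neurons and their few forebrain relatives, and it was singled out after its values were seen. Its normalized counts in the control pools, taken in order of pool number, were 224, 201 and 224, and those under olanzapine were 231, 341 and 303. All olanzapine pools lay above all control pools, but the log2 fold change of 0.43 did not pass edgeR's quasi-likelihood test (unadjusted p = 0.0419, Benjamini-Hochberg adjusted p = 0.260). The log2 fold changes of Ddc (aromatic amino acid decarboxylase), Maoa and Maob (monoamine oxidases) were 0.040, -0.27 and -0.26. The dopamine transporter Slc6a3 and the noradrenaline-forming enzyme Dbh had a mean of 7.17 and 1.5 counts and were not tested.

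Of 14 genes of D1-class signalling, 0 were called, and their median log2 fold change was 0.076. Without olanzapine pool 1, Adcy1, an adenylyl cyclase, was called lower with a log2 fold change of -0.74 (Benjamini-Hochberg adjusted p = 0.00325, edgeR), beside 0.16 with all pools. Its normalized counts were 8309 to 8925 in the control pools and 18614, 4812 and 5499 under olanzapine. The cortical marker sums were 4377 to 5956 in the control pools and 38623, 3805 and 3081 under olanzapine. The part of cortical tissue in the Adcy1 value was not tested. Adcy1, Arpp19 and Gnal are named here after their values were seen. The stimulatory G protein subunits Gnas and Gnal had log2 fold changes of -0.023 and -0.10, the beta subunit Gnb1 0.0046, the kinase subunit Prkacb -0.17 and Ppp1r1b (DARPP-32, the phosphatase inhibitor downstream of Drd1) 0.37. Ppp1r1b, Adcy5, Gng7, Pde1b and Pde10a stand on the striatal list too. Ppp1r1b had normalized counts from 13160 to 24668 in the control pools and from 14391 to 31377 in the olanzapine pools, again lowest in control pool 1 and olanzapine pool 1. Arpp19, a phosphatase inhibitor of another family, had a log2 fold change of 0.53 that missed the threshold of edgeR's test (Benjamini-Hochberg adjusted p = 0.0522). It passed with DESeq2 and with edgeR without a count filter (adjusted p = 0.0294) or with upper-quartile normalization (adjusted p = 0.0480).

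Of 15 genes of D2-class signalling, 1 was called higher and 0 lower, and the median log2 fold change was -0.056. Rgs4, a GTPase-activating protein that shortens Gi and Gq signals, had 5435, 6893 and 6462 normalized counts in the 3 control pools, against 11415, 10037 and 9118 in the 3 olanzapine pools. Every olanzapine pool lay above every control pool. It rose by 0.70 on the log2 scale (SE 0.11), and the Benjamini-Hochberg adjusted p of edgeR's quasi-likelihood test was 0.0233. Leaving out 1 pool at a time kept the call in 2 of 6 fits (without olanzapine pool 1 or 3), with log2 fold changes from 0.61 to 0.78 and adjusted p from 0.0217 to 0.0855. Over all 15 alternative fits, 8 called it. The inhibitory G protein subunits Gnao1, Gnai1 and Gnai2 had log2 fold changes of -0.022, -0.14 and -0.11. Without olanzapine pool 1, 4 genes of the list were called, namely Rgs4 and Rgs9 higher and Gsk3b and Kcnj6 lower, in a fit that called 508 of all 17687 genes tested, the most of the 6 fits with 1 pool left out. Kcnj6 had 2445 to 3189 normalized counts in the control pools and 3415, 1523 and 1839 under olanzapine, highest in the pool with the high cortical sum. The part of cortical tissue in the Kcnj6 value was not tested.

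Rgs9, the striatal GTPase-activating protein that acts on D2-class signals, had 3944, 5592 and 4420 normalized counts in the 3 control pools, against 5082, 9206 and 9359 in the 3 olanzapine pools. Olanzapine pool 1 lay within the control range. Its log2 fold change was 0.76 with all pools (adjusted p = 0.150) and 1.00 without olanzapine pool 1 (adjusted p = 0.00668), both by edgeR's test with Benjamini-Hochberg adjustment. Rgs9 is also on the striatal list, whose sum without olanzapine pool 1 was 104498 to 162539 in the control pools and 176480 to 180828 under olanzapine, and the part of striatal neurons in the Rgs9 value was not tested. Gsk3b, a kinase of the arrestin branch of D2 signalling, was at -0.38 on the log2 scale by the same edgeR test (adjusted p = 0.0663), with no overlap between the groups, and passed with upper-quartile normalization (adjusted p = 0.0443), with DESeq2 and without olanzapine pool 1. Rgs9, Gsk3b and Kcnj6 were named after their values were seen.

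Of 13 tested genes that regulate or bind dopamine receptors, 0 were called higher and 1 lower, and the median log2 fold change was 0.041. Sorcs2, a sorting receptor of the VPS10 family with a known role in the dopamine system, had 3640, 3438 and 3257 normalized counts in the 3 control pools, against 2273, 2660 and 2705 in the 3 olanzapine pools. It fell by 0.44 on the log2 scale (SE 0.087), and the Benjamini-Hochberg adjusted p of edgeR's quasi-likelihood test was 0.0474. The call held in 1 of 6 fits that left out 1 pool (without olanzapine pool 1), with adjusted p from 0.0433 to 0.169, and in 4 of all 15 alternative fits. The arrestin Arrb1 had a log2 fold change of -0.18, the spine scaffold Ppp1r9b -0.057, the fusion ATPase Nsf 0.062 and the calcium sensor Ncs1 -0.085, none called. Of the 7, 14, 15 and 13 tested genes on these 4 pathway lists, 2 were called in all, beside 2.32% of all tested genes.

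The other marker lists are given beside these values. Markers of cholinergic neurons held, beside the 2.32% called over all tested genes, 0 called genes of 6 (median log2 fold change -0.20), cortical glutamatergic markers 0 of 8 (median 1.73, with olanzapine pool 1 far above the rest) and choroid plexus markers 0 of 8 (median -0.65). All 8 hepatocyte markers were called higher (1.83% of all tested genes), with a median of 4.10. For Apoa1, which is on this list, the paper also reported a higher level under olanzapine by qRT-PCR in LS tissue of other mice. It proposes that olanzapine affects the expression of lipid genes in the LS. Tissue content and expression in LS cells cannot be told apart in these counts. In control pool 2 and olanzapine pools 2 and 3, the pools high in Drd1 and Drd2, the choroid plexus sums were 105896, 184502 and 2587 and the hepatocyte sums 724, 10764 and 8769. The part of these tissues in the receptor values was not tested.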

How the data were processed

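RNA-seq counts per gene were available for 6 pools of 3 mice, 3 per group. Groups came from the treatment labels. Reads were trimmed with fastp, aligned with HISAT2 to mm10 and counted per gene with HTSeq-count, and the authors deposited these raw counts together with FPKM that the authors computed from the alignments. The strand setting, the annotation and the gene lengths behind FPKM are not given in the sources used here. All columns of per-sample values were used.

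A quasi-likelihood model with a single term for group was fitted to the TMM-scaled counts in edgeR 4.0.16 (R 4.3.3). The filterByExpr rule removed low genes first (min.count 10, min.total.count 15). P-values were adjusted over all tested genes by Benjamini-Hochberg, and a gene was called at an adjusted p under 0.05. The standard error was the size of the log2 fold change divided by the square root of F. Alternatives were DESeq2 1.42.0, RLE and upper-quartile normalization, a mean count of 50 or more in place of the filter, no filter, a replicate block, limma 3.58.1 on log2 FPKM with a pseudocount of 0.1 or 1 (mean FPKM of 0.1 or more, and unfiltered for the former), the added fold change limit, the unadjusted p, and leaving out each pool. The main edgeR fit and DESeq2 were tested on simulated counts with the same dispersion for every gene. The simulation held no tissue differences between pools, and the other fits were not tested this way. P-values measure the spread between pools. Count intervals and floors cover counting error only.

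The receptors, gene lists and tests were chosen with earlier results of these data known. Genes could be named if they were receptors, called members of a list, among the 4 members of a list with the highest mean count, or among the 5 genes nearest to a receptor in profile over the pools; others are marked in the text or illustrate a list. Adrbk1 and Adrbk2 were listed under these symbols and did not match, and the same genes were found as Grk2 and Grk3. Positions came from GENCODE M21 and promoter windows from RefSeq, where all 5 receptors matched. Values of 1 further listed gene are not reported here.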

Additional observations from a re-analysis of the deposited data

How the results depend on the processing

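No dopamine receptor was called under any of the 17 alternatives tried. The log2 fold change of Drd1 ranged from -0.047 to 0.38 when each pool was left out in turn, with a negative sign without control pool 1 (-0.047) or olanzapine pool 3 (-0.046). That of Drd2 ranged from -0.026 to 0.39, with a negative sign without olanzapine pool 2 (-0.012) or 3 (-0.026). Those of Drd3 and Drd5 stayed negative in all 15 refits. Adjusted p ran from 0.368 to 0.999 for Drd1, 0.237 to 0.989 for Drd2, 0.243 to 0.721 for Drd3 and 0.411 to 0.891 for Drd5. For Drd4, log2(FPKM + 0.1) without a filter gave 0.24, where the pseudocount exceeds every value of the gene.

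DESeq2 called 1093 of 25998 genes with a p-value, a number that includes genes without an adjusted p, such as Drd4. It called 1 gene of D1-class signalling (Arpp19), 3 of D2-class signalling (Rgs4, Rgs9, Gsk3b), 1 marker of the Drd1 class of striatal neurons (Chrm4), 1 shared striatal marker (Rgs9) and 1 LS marker (Glp1r, named after its values were seen). With pools left out in turn, the called genes numbered 0 to 1 for D1-class signalling, 0 to 4 for D2-class signalling, 0 to 1 for receptor regulation and 0 to 1 for shared striatal markers. The upper values of 1, 4 and 1 for the signalling and striatal lists came without olanzapine pool 1. In the order of receptor levels, 2 of 4 neighbouring pairs were apart by FPKM and 3 by normalized count per kilobase.

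Same-numbered pools did not deviate together (correlations -0.00262, 0.0616 and -0.255), and the sources name no pairing. The tissue marker sums differed between pools, so these correlations cannot exclude that the numbers pair the samples. With the replicate number as a block, the log2 fold changes were 0.10 for Drd1, 0.090 for Drd2, -0.49 for Drd3 (unadjusted p = 0.0460, adjusted p = 0.289, edgeR) and -0.28 for Drd5, with 0 called, and all genes called fell from 401 to 140. With 1 pool left out, edgeR called from 131 to 508 of all genes.

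Depth limits Drd4, at 0 to 6 counts per pool. With 3 pools per group, changes inside the intervals given for the other receptors cannot be seen.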
